A study of Mus musculus with 6 samples.

Results

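The genes described here are 5 atrial marker genes, Myl4, Myl7, Sln, Bmp10 and Mybphl, measured in libraries made from mouse cardiac ventricles. They were taken by name, are 5 of the 24391 genes in the table, and all 5 were found. All mice were on the C57BL/6 background, and the animals were either wild type (WT) or Klf15 KO, Klf15 being the gene of a zinc finger transcription factor. Each genotype was sampled at postnatal day 10 (P10), 4 weeks (4w) and 20 weeks (20w), with 3 libraries in each of the 6 groups and 18 in all. No label ties a library to its own animal. A p-value here reflects only how far libraries of the same group lie apart, and this may be technical spread. In the main fit this spread is pooled for each gene over the 6 groups. The sources used here give neither the making of the KO allele, nor any limit of it to a cell type, nor how atria were separated from ventricles.

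Atrial and ventricular cardiomyocytes build their contractile apparatus from different members of the same families. Myl4 and Myl7 encode the atrial essential and regulatory light chains of myosin, whose ventricular counterparts are Myl3 and Myl2. Sln encodes sarcolipin, a small membrane peptide that inhibits the calcium pump SERCA in atrial and skeletal muscle, as phospholamban (Pln) does in the ventricle. Mybphl encodes a relative of cardiac myosin binding protein C (Mybpc3) known from mouse atria and the ventricular conduction system. Bmp10 encodes a secreted ligand of the BMP family, made by the trabeculated ventricle of the embryo and after birth mainly by the right atrium. RNA of these genes in a ventricular sample can come from ventricular cells, from conduction tissue or from atrial tissue left on the sample. In bulk RNA, fewer cells of a type and less RNA per cell cannot be told apart, and the source of these reads was not tested.

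Values are normalized counts, that is reads divided by 1 size factor per library. Reads assigned to genes numbered 9504538 to 29278351 per library. The ribosomal transcript Rn45s took 30.8% of the reads of 4w KO replicate 2, and 2.72% of 20w WT replicate 2, 1.74% of 4w WT replicate 2 and 1.7% of 20w KO replicate 2. Each P10 library held Xist, expressed from the inactive X, at 4813.8 or more together with Y-linked Ddx3y at 524.7 or more, whereas Xist did not pass 9.4 at 4w and 20w. A difference between P10 and a later age therefore cannot be told apart from a difference in the sexes sampled. The targeted gene Klf15 differed in the labelled direction at each age, with log2 differences of -2.69, -4.67 and -4.65 at P10, 4w and 20w (limma adjusted p of 1.34e-07, 5.08e-12 and 3.71e-12).

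The promoters of 4 of the 5 genes are shown because Myl4, Myl7 and Mybphl moved together across libraries and Bmp10 less so. Each is the 250 bases before the gene's start in RefSeq, build GRCm38.p6, read on the gene's own strand from 5' to 3'. They lie at chr11:104550413-104550662 on the plus strand (Myl4), chr11:5898783-5899032 on the minus strand (Myl7), chr3:108364661-108364910 on the plus strand (Mybphl) and chr6:87428744-87428993 on the plus strand (Bmp10). The table of promoters used here has no row for Sln. Capitals mark CACCC, the box that Krüppel-like factors bind (GGGTG on the other strand), and GATAA, a site of GATA factors (TTATC on the other strand).
Myl4: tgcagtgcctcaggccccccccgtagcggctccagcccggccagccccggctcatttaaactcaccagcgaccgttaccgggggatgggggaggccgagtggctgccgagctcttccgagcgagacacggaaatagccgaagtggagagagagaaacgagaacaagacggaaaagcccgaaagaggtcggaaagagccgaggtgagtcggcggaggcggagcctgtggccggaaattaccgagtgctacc
Myl7: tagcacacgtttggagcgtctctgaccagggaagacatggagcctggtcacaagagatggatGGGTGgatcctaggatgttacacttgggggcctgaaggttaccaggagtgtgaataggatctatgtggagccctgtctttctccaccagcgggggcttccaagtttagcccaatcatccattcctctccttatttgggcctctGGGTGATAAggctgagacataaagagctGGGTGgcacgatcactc
Mybphl: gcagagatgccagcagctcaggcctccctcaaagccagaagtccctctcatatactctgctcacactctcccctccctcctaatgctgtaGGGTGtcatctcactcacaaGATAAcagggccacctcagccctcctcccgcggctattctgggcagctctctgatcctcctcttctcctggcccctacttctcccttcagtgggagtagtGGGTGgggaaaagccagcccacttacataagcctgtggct
Bmp10: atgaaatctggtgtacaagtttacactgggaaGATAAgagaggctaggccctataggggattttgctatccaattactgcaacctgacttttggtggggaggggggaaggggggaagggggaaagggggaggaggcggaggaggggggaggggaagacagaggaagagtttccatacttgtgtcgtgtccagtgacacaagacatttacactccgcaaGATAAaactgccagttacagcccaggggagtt
CACCC occurred 3 times in the Myl7 window and 2 times in that of Mybphl, and did not occur in those of Myl4 and Bmp10. It was present on either strand in 51.3% of all 27025 promoters of this length. GATAA occurred 2 times before Bmp10 and 1 time each before Myl7 and Mybphl, against 23.0% of all promoters. In the Myl7 window 1 GATAA shares its first base with the end of a GGGTG, so both were marked as 1 run. The T-box site AGGTGT (12.0% of promoters), the nuclear receptor site AGGTCA (13.8%) and the MEF2 site CTANNNNTAG (3.23%) were not found in these 4 windows. A match describes letters and is not a bound site, and no match says only that these letters are not in this window.

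All of the 5 genes passed the filter on low values, a mean of at least 10 over the 18 libraries, but Bmp10 did so through a single library. Its mean was 12.2 over all libraries and 4.49 without 20w WT replicate 2, so a call of Bmp10 that rests on 20w WT follows from the filter and is kept out of the counts of these genes. Myl4 ranged from 198.4 to 460.5 with a median of 318.4, and Myl7 from 185.0 to 511.5 with a median of 319.5. Sln ranged from 17.9 to 129.9 with a median of 77.9, and Mybphl from 13.6 to 66.6 with a median of 32.2. Bmp10 ranged from 0 to 143.1 with a median of 1.14, and 7 of the 18 libraries held no Bmp10 read. For all of them but Mybphl the highest library was 20w WT replicate 2; for Mybphl it was 4w KO replicate 1.

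Per kilobase of exon, the regulatory light chain Myl7 was the most abundant of the 5 genes in each group. Its group means ran from 397 normalized counts per kilobase in 4w WT to 727 in 20w WT, and those of Myl4 from 205 to 345 in the same groups. The corresponding span was 30.2 to 89.9 for Sln, 15.0 to 44.2 for Mybphl and 0 to 11.4 for Bmp10. Beside their counterparts these levels were small. Per kilobase, the Myl7 level was 0.434% to 1.37% of that of Myl2 over the 18 libraries, and the Myl4 level was 0.278% to 0.718% of that of Myl3. The Sln level was 0.0427% to 0.158% of that of Pln, and the Mybphl level was 0.101% to 0.329% of that of Mybpc3. Myl2, Myl3, Pln and Mybpc3 were thus far above Myl7, Myl4, Sln and Mybphl in all 18 libraries. For the light chains this is what the tissue label says. Pln and Mybpc3 were listed here with the general cardiomyocyte genes, so the chamber is not read from their ratios.

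**Figure D1:**
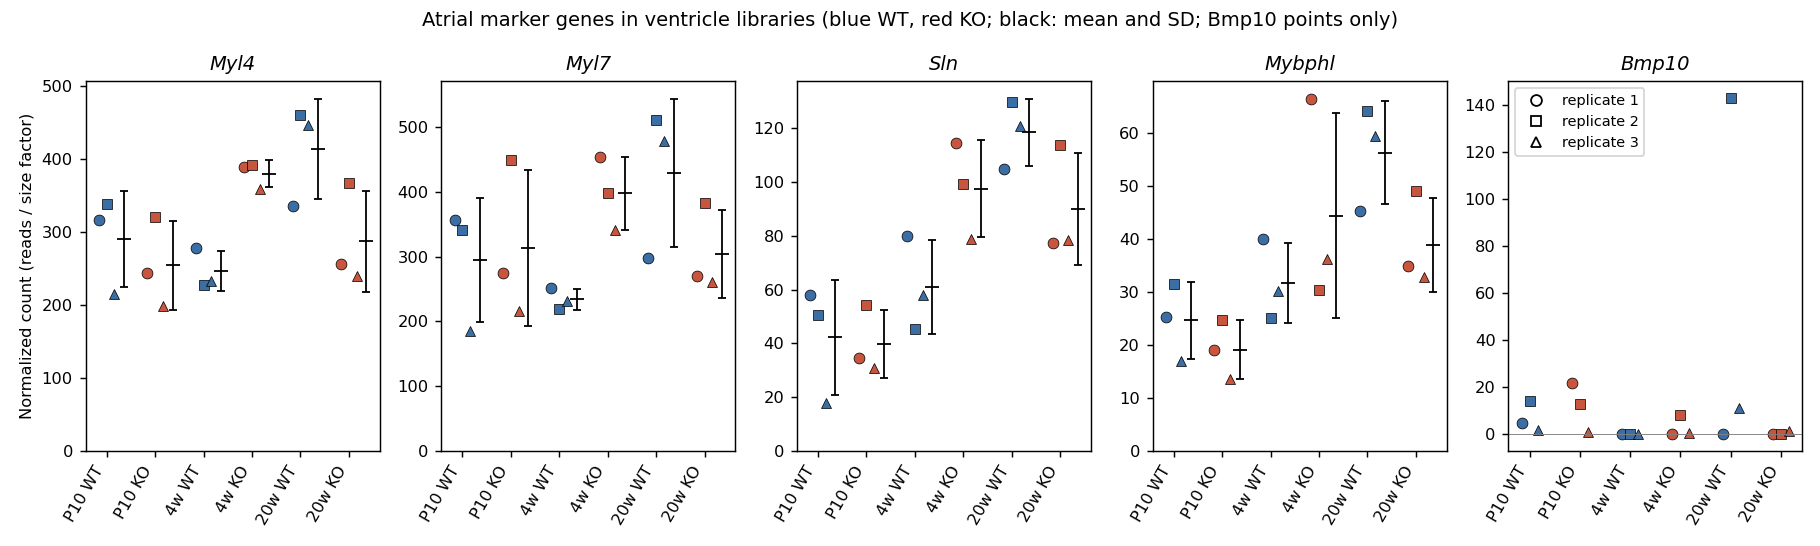
Normalized count (vertical axis, linear) of each gene in each of the 18 libraries, grouped by age and genotype; blue is WT, red is KO, the symbol gives the replicate number, and black marks give the mean and SD of 3 libraries (not drawn for Bmp10). In Myl4, Myl7, Sln and Mybphl the 20w WT and 4w KO groups have the highest means, and 1 library carries most of the Bmp10 signal at 143.1.

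Myl4, the atrial essential light chain, was at 316.8, 338.5 and 215.0 in the P10 WT libraries and at 244.3, 320.0 and 198.4 in P10 KO. At 4w it was at 277.4, 227.6 and 233.1 in WT and at 389.3, 391.6 and 358.7 in KO. The lowest 4w KO library lay above the highest 4w WT library, while the P10 groups overlapped. Here and below, groups that are apart are a description, without the share of all genes for which this holds. At 20w the values were 335.2, 460.5 and 447.0 in WT and 256.2, 366.8 and 239.3 in KO. The order reversed there, with the KO mean of 287.4 ± 69.2 (SD, n = 3) below the WT mean of 414.2 ± 68.8, but KO replicate 2 lay above WT replicate 1. From the highest, the group means ran 20w WT, 4w KO, P10 WT, 20w KO, P10 KO and 4w WT, and of these neighbours 4w KO and P10 WT were the pair whose libraries did not overlap. In the GRCm38 annotation 4 entries on the opposite strand overlap Myl4, and without the strand setting of the counting, their reads cannot be told apart from those of Myl4.

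Myl7, the atrial regulatory light chain, followed a like course. It was at 357.2, 341.8 and 185.0 in P10 WT and at 274.8, 448.7 and 215.5 in P10 KO, and these groups overlapped widely. At 4w it was at 251.9, 219.2 and 230.8 in WT and at 454.2, 397.6 and 341.4 in KO. As for Myl4, the 4w groups did not overlap, and 4w WT was the lowest group with a mean of 234.0 ± 16.6 (SD, n = 3). At 20w it was at 297.6, 511.5 and 478.3 in WT and at 269.8, 382.5 and 260.7 in KO. WT replicate 1 fell within the KO range, so the 20w groups overlapped, and no neighbours in the order of Myl7 group means were apart.

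Sln, the SERCA inhibitor, was lowest at P10, with 58.1, 50.6 and 17.8 in WT and 34.6, 54.1 and 30.7 in KO. At 4w the values were 79.9, 45.3 and 58.0 in WT and 114.6, 99.4 and 78.7 in KO. The 4w groups met at a single point, since the lowest KO library was just under the highest WT library. At 20w they were 104.9, 129.9 and 120.8 in WT and 77.4, 113.9 and 78.3 in KO, and KO replicate 2 lay within the WT range. The order of the group means was 20w WT, 4w KO, 20w KO, 4w WT, P10 WT and P10 KO, and each group overlapped the next.

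Mybphl, the myosin binding protein H-like gene, had the same order of group means as Sln. Its P10 values were 25.3, 31.5 and 17.04 in WT and 19.1, 24.7 and 13.6 in KO. At 4w they were 39.95, 25.02 and 30.15 in WT and 66.6, 30.4 and 36.2 in KO, where KO replicate 1 stood alone above all WT libraries. At 20w they were 45.4, 64.1 and 59.6 in WT and 34.9, 49.1 and 32.8 in KO. The 4w and 20w groups both overlapped. In the GRCm38 annotation 1 opposite-strand entry overlaps Mybphl, with the same limit as for Myl4.

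Bmp10, the secreted ligand, rested on 200 reads in all libraries together, of which 43.5% lay in 20w WT replicate 2. Its reads numbered 5, 17 and 2 in P10 WT and 54, 21 and 1 in P10 KO. At 4w there were 0, 0 and 0 reads in WT and 0, 4 and 1 in KO. At 20w there were 0, 87 and 7 in WT and 0, 0 and 1 in KO. All 6 P10 libraries held the transcript, while the 3 libraries of 4w WT held none, which allows a mean of up to 3.46 normalized counts (3 reads per library, counting error only). Bmp10 was the gene whose libraries of 1 group disagreed most. It lies on the chromosome of Klf15, within 10 Mb of it in GRCm38, so a difference between KO and WT cannot be told apart from one carried along with the targeted allele.

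**Figure D2:**
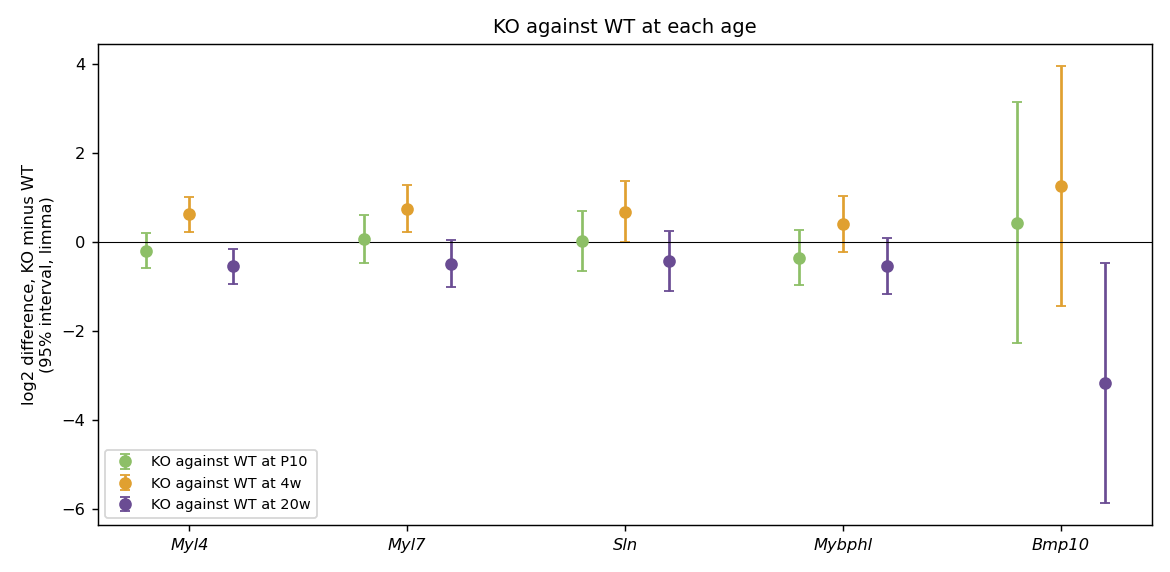
Difference between KO and WT on the log2(value + 1) scale (vertical axis) for each gene at P10, 4w and 20w. Points are limma estimates for 3 against 3 libraries, and bars are their 95% intervals, with the spread pooled over all 18 libraries. Points lie above 0 at 4w and below 0 at 20w for Myl4, Myl7, Sln and Mybphl, and none of the 15 differences passed the adjusted threshold. The points of Bmp10 have the same signs, but its 20w value rests on the library through which it passed the filter.

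The first question was whether loss of KLF15 changed these genes at each age. Differences were tested with limma on log2(value + 1) over 13032 genes, with Benjamini-Hochberg adjustment over all of them and a threshold of 0.05. None of the 5 genes was called at P10, 4w or 20w, against 2.26%, 5.65% and 7.49% of all genes tested at these ages. At an unadjusted p under 0.05 there were 0 at P10, 3 at 4w and 2 at 20w, against 14.1%, 17.9% and 21.4% of all genes. The 2 at 20w were Myl4 and Bmp10, and the Bmp10 value rests on the library through which it passed the filter. Of the 4 genes other than Bmp10, edgeR's quasi-likelihood test called 0, 0 and 0 at the 3 ages, and DESeq2 called 0, 1 and 0.

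At 4w the light chains came nearest to the threshold. Myl4 was 0.63 ± 0.19 (SE) higher in KO on the log2 scale, 1.55-fold, with a limma adjusted p of 0.0532 and a 95% interval of 0.24 to 1.02. Myl7 was 0.76 ± 0.26 (SE) higher, 1.69-fold, with a limma adjusted p of 0.0958. Sln, Mybphl and Bmp10 had log2 differences of 0.69, 0.42 and 1.27 with limma adjusted p of 0.269, 0.524 and 0.686. The Myl4 difference passed the threshold with DESeq2 (adjusted p = 0.0245) and with only the 2 groups compared in the limma fit (adjusted p = 0.00593), where Myl7 passed too (0.00366). It missed it with edgeR and whenever a 4w library was left out (limma adjusted p of 0.0548 to 0.172). Leaving out 1 of the 12 libraries of the other ages, which share the estimate of spread, gave a call in 7 cases (limma adjusted p of 0.0333 to 0.0635 over the 12). Scaled to a common total of reads, the median of all genes moved to -0.24 between 4w KO and 4w WT, with Rn45s counted in the totals, and the Myl4 difference moved with it to 0.39.

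Ratios within a library do not depend on the scaling. The Myl4 count was 0.313%, 0.315% and 0.409% of the Myl3 count in the 4w WT libraries in ascending order, and 0.575%, 0.601% and 0.697% in 4w KO. The Myl7 count was 0.206% to 0.279% of the Myl2 count in 4w WT and 0.329% to 0.505% in 4w KO. Both sets of 4w groups were apart on these ratios as well. Myl3 and Myl2 themselves differed by -0.23 and -0.03 on the log2 scale between 4w KO and WT, with limma adjusted p of 0.195 and 0.941.

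At 20w the differences had the opposite sign and none passed. Myl4 was at -0.54 ± 0.19 (SE) on the log2 scale with a limma adjusted p of 0.0879. The other 3 muscle genes were at -0.48 (Myl7), -0.41 (Sln) and -0.53 (Mybphl), with limma adjusted p of 0.292, 0.498 and 0.316. Without 20w KO replicate 2, whose value was the highest of its group for these 4 genes, Myl4 was at -0.73 with a limma adjusted p of 0.0279. Of the 18 fits with 1 library left out, 1 called Myl4, and the limma adjusted p reached 0.311 in another. The 12 other settings gave 0 calls of Myl4 at 20w. Bmp10 was at -3.16, limma adjusted p of 0.156. edgeR and DESeq2 called it (adjusted p of 0.0310 and 0.0350), but 92.6% of the WT reads lay in replicate 2, the library through which it passed the filter, and nothing is read from this call. At P10 the log2 differences were -0.19 for Myl4, 0.08 for Myl7, 0.04 for Sln, -0.35 for Mybphl and 0.44 for Bmp10, with limma adjusted p of 0.682 to 0.981. The P10 intervals still allow changes of size, such as -0.58 to 0.20 for Myl4 and -0.46 to 0.61 for Myl7.

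Whether the KO effect differed between ages was tested directly. Between 4w and 20w it moved by -1.17 ± 0.26 (SE) for Myl4, -1.23 ± 0.36 for Myl7, -1.10 ± 0.46 for Sln, -0.95 ± 0.42 for Mybphl and -4.42 ± 1.83 for Bmp10. None was called by limma (adjusted p of 0.0631, 0.142, 0.334, 0.373 and 0.328), in a test that called 0.192% of all genes. The Bmp10 value rests on 20w WT replicate 2, the library through which it passed the filter, and nothing is read from it. Myl4, Myl7, Sln and Mybphl were below an unadjusted p of 0.05, as were 11.8% of all genes. edgeR called 0. DESeq2 gave an adjusted p for 2 of the 4 genes other than Bmp10 and called 1 of them, Myl4 (adjusted p = 0.00567). The limma fit of these 4 groups alone called Myl4 and Myl7 (adjusted p of 0.0341 and 0.0461). The limma call of Myl4 was also made without 20w KO replicate 2 or without P10 WT replicate 2 (adjusted p of 0.0232 and 0.0481). Between P10 and 4w 0 genes were called against 1.26% of all genes, with 1 at an unadjusted p under 0.05 against 12.7%. Between P10 and 20w the count was 0 against 3.74%, with 0 unadjusted against 17.2%. Averaged over the ages, 0 of 5 were called against 10.4% of all genes, with 0 unadjusted against 24.2%, and edgeR and DESeq2 also called 0 in these 3 comparisons.

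The age comparison within WT gave the most calls. From 4w to 20w, limma called Myl4, Myl7, Sln and Mybphl, all higher at 20w, while it called 25.1% of all genes and 13.3% as higher. Myl4 rose by 0.74 ± 0.19 (SE) on the log2 scale (1.67-fold, limma adjusted p of 0.00695) and Myl7 by 0.84 ± 0.26 (1.78-fold, 0.0216). Sln rose by 0.98 ± 0.32 (1.97-fold, limma adjusted p of 0.0325) and Mybphl by 0.82 ± 0.30 (1.77-fold, 0.0497). For these 4 genes each 20w WT library lay above each 4w WT library. The share of all genes that are apart in this way is not given here, and the 4 genes vary together, so this adds little to the calls. The limma adjusted p of Bmp10 was 0.0478, a call that follows from the filter, and its groups overlapped. Its 20w WT mean was 14.8 times the limit that 0 reads allow in 4w WT, and 1.59 times that limit without 20w WT replicate 2. These ratios leave out the counting error of the 20w WT reads, which were 0, 87 and 7, so they are not lower bounds. edgeR and DESeq2 each called 3 of the 4 and missed Mybphl. Markers of other cells moved over the same interval: of 12 fibroblast genes limma called 11 lower and 0 higher (median log2 difference of -0.77), with the collagen gene Col3a1 at -2.13. Of 15 cardiomyocyte genes it called 3 higher and 0 lower (median 0.09), and of 10 endothelial and endocardial genes 1 higher and 2 lower (median -0.11). With a common total the cardiomyocyte median was -0.05 and 12 of 12 fibroblast genes were called lower. The part of these cells in the rise was not tested.

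These calls leaned on single libraries. Without 20w WT replicate 2 limma called 1 of the genes, Myl4 (log2 difference of 0.66, adjusted p of 0.0382), and Myl4 alone was also left without 20w WT replicate 3 or 4w WT replicate 2. Without 4w WT replicate 3, Myl4 and Myl7 were left. The 2 replicates numbered 2 are also those with more Rn45s. Without the 4 libraries highest in Rn45s, Myl4, Myl7, Sln and Mybphl were 0.60, 0.64, 0.72 and 0.57 higher at 20w, and 0 were called by limma (adjusted p of 0.0883 to 0.305, 2 against 2 libraries). Their part in the result was not tested beyond this. Scaling to a common total put the median log2 difference over the genes tested at -0.16, and limma then called 2 of the 4, Myl4 (0.60) and Myl7 (0.70), with adjusted p of 0.0387 and 0.0446. Relative to Myl3 the Myl4 count was 0.528% to 0.808% in 20w WT, and Myl3 fell by 0.29 on the log2 scale over the same interval (limma adjusted p of 0.0331).

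From P10 to 4w calls were made in KO and not in WT, while the difference between the genotypes was not called, as given above. In KO, limma called 3 of the 5, all higher at 4w, against 58% of all genes called and 29.6% called as higher: Sln by 1.30 ± 0.32 (SE), Mybphl by 1.13 ± 0.30 and Myl4 by 0.60 ± 0.19, with adjusted p of 0.00198, 0.00308 and 0.00929. edgeR and DESeq2 each called 3. Without P10 KO replicate 3 Myl4 was no longer called (limma adjusted p of 0.0709), and without P10 KO replicate 2 Myl7 was called as well (0.0262). Over the same interval limma called 15 of 15 cardiomyocyte genes higher (median log2 difference of 0.67), and of 12 fibroblast genes 9 lower and 1 higher (median -1.10). With a common total, 5 of the 15 cardiomyocyte genes were called higher, 4 of the 15 lay below 0, and 10 of the 12 fibroblast genes were called lower. The part of these cells in the rise was not tested. Scaled to a common total, which put the median of all genes at -0.48, Sln was the gene still called, at 0.82 (limma adjusted p of 0.0195), and Myl4 was at 0.11. In WT 0 of 5 were called by limma against 58% of all genes, and 0 at an unadjusted p under 0.05 against 61.8%; edgeR and DESeq2 called 0. The largest WT values were 0.65 for Sln (limma adjusted p of 0.095) and -2.61 for Bmp10 (0.0915). From 4w to 20w in KO 0 of 5 were called against 19.3%, with 1 unadjusted (Myl4, -0.43, adjusted p of 0.12) against 32.5%, and edgeR and DESeq2 called 0.

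**Figure D3:**
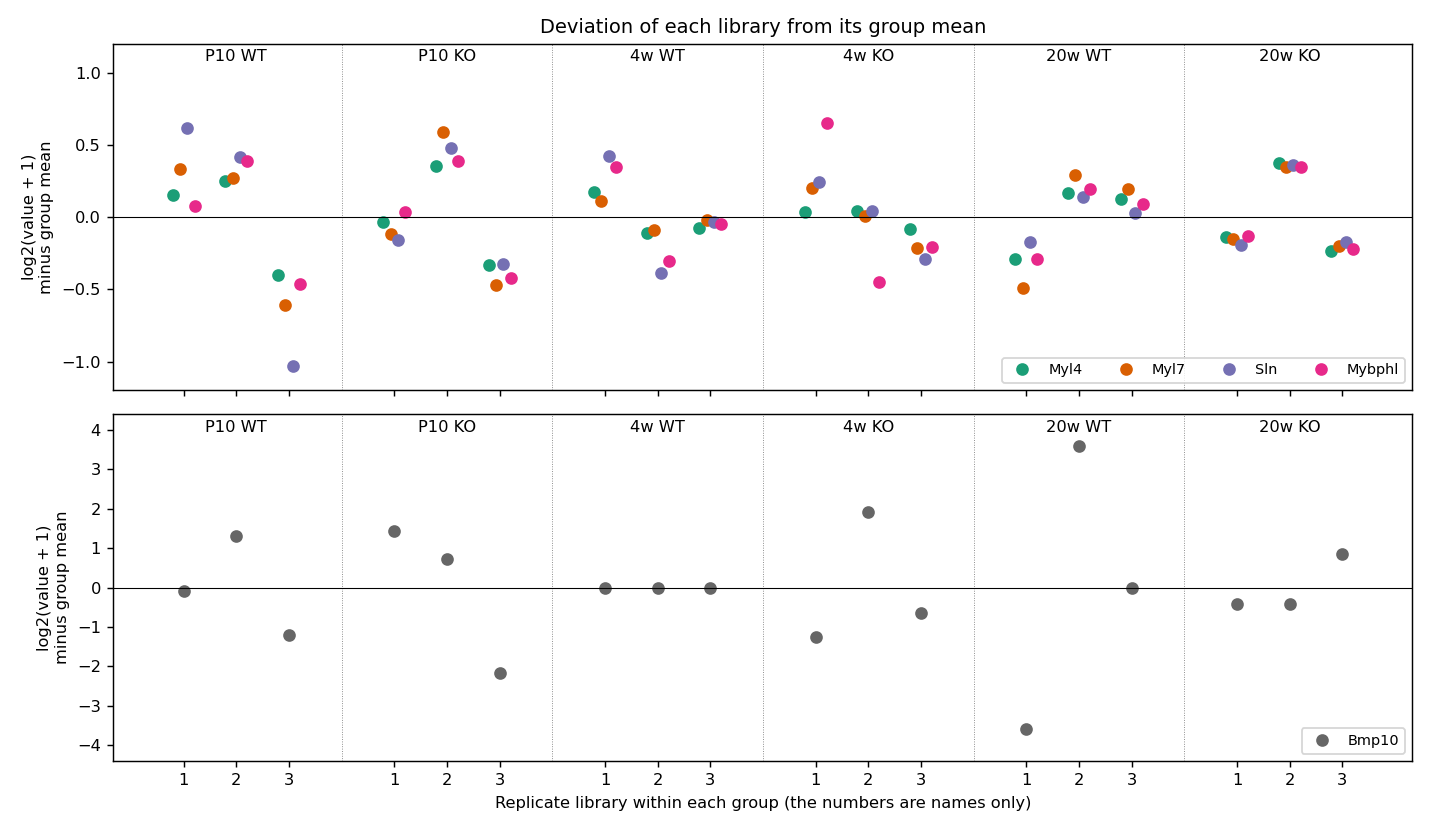
Deviation of each library from the mean of its group on the log2(value + 1) scale (vertical axes), for Myl4, Myl7, Sln and Mybphl (upper panel) and Bmp10 (lower panel, wider axis), with the 3 libraries of each group along the horizontal axis. The 4 genes of the upper panel sit together within a library, as in 20w KO and P10 KO, while Bmp10 deviates by up to 3.59.

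Within groups, 4 of the 5 genes varied together from library to library. The deviations of Myl4 and Myl7 from their group means correlated with Pearson's r of 0.954 and Spearman's rho of 0.934 over 18 libraries (exact permutation within groups, two-sided, adjusted p of 0.00116 and 0.00129 over 10 pairs). The other pairs among Myl4, Myl7, Sln and Mybphl had r of 0.768 to 0.87 and rho of 0.798 to 0.889, each with an exact permutation p adjusted to 0.003 or less. Leaving out the 2 libraries farthest from 0 left r of 0.733 to 0.95 in these 6 pairs. The 4 pairs with Bmp10 had r of 0.245 to 0.544 and rho of 0.197 to 0.48 (exact permutation, adjusted p of 0.094 to 0.527). The 4 genes are therefore not 4 independent observations of a group.

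In 4 of the 6 groups the same library was highest for all of Myl4, Myl7, Sln and Mybphl, and in 4 of the 6 the same library was lowest. These were replicate 2 as the highest in P10 KO, 20w WT and 20w KO and replicate 1 in 4w WT. In 20w KO the 4 genes of replicate 2 were 0.35 to 0.38 above their group means, and in P10 KO replicate 2 they were 0.36 to 0.59 above. In P10 WT replicate 3 they were 0.40 to 1.03 below. The highest library differed between the 4 genes in P10 WT and 4w KO, and the lowest in 4w KO and 20w KO. In 4w KO, Mybphl was 0.655 above in replicate 1 and 0.45 below in replicate 2 while Myl4 stayed within 0.081.

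The genes also spread more within groups than most. The pooled within-group SD on the log2 scale was 0.272 for Myl4, 0.386 for Myl7, 0.474 for Sln, 0.399 for Mybphl and 1.893 for Bmp10. Those of the first 4 exceeded the SD of 80.2%, 90.8%, 94.9% and 91.5% of the genes tested, whose median was 0.157. The counterparts were steadier, at 0.127 for Myl2, 0.097 for Myl3, 0.128 for Pln and 0.126 for Mybpc3. Counting error adds to the spread of the rarer genes, since libraries held as few as 22 reads of Sln, 15 of Mybphl and 0 of Bmp10.

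**Figure D4:**
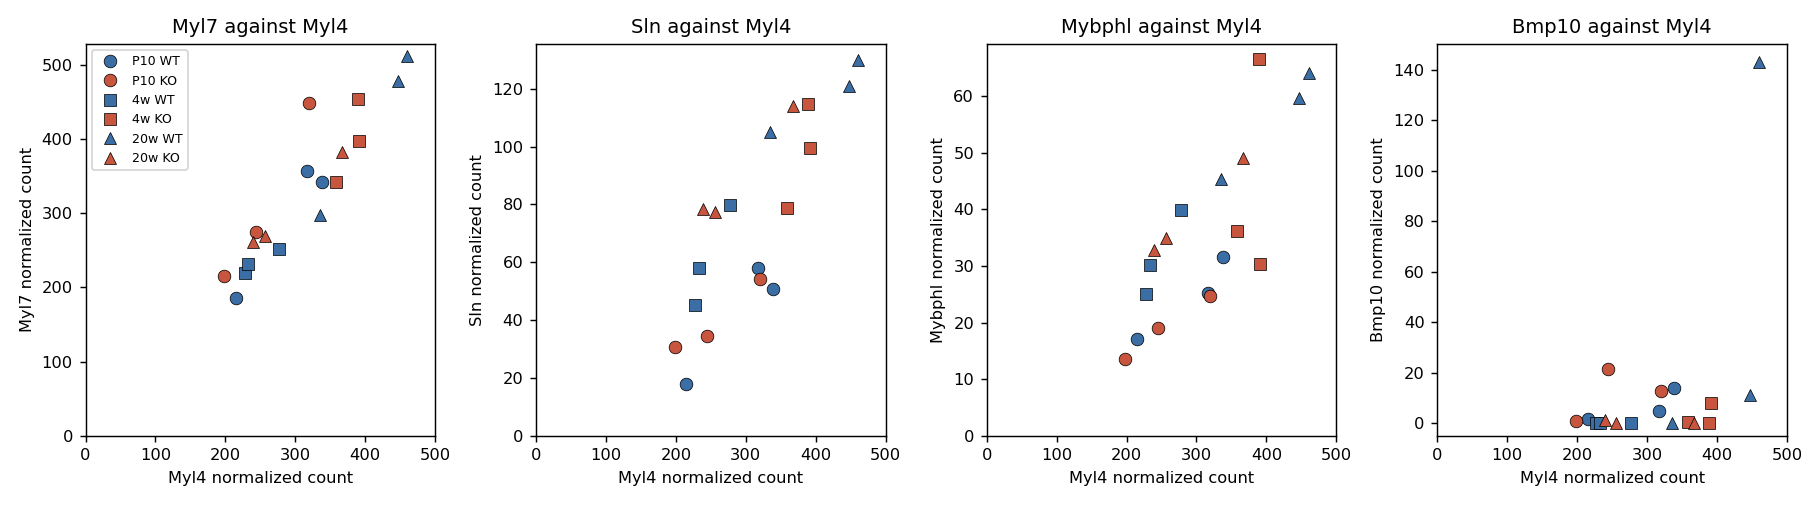
Normalized count of Myl7, Sln, Mybphl and Bmp10 (vertical axes) against that of Myl4 (horizontal axes) in the 18 libraries; circles are P10, squares 4w, triangles 20w, blue WT and red KO. Myl7 lies at 86.0% to 140% of Myl4, whereas for Sln the P10 libraries lie below the later ones relative to Myl4, for Mybphl they do so but for 4w KO replicate 2, and Bmp10 shows no common line.

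The proportion of Sln to Myl4 was lower in each P10 library than in each later one, while that of Myl7 to Myl4 varied less. Group means of Myl7 to Myl4 ran from 95.4% in 4w WT (90.8% to 99.0%) to 121% in P10 KO (109% to 140%), and these 2 groups were apart. The Myl7 count was 86.0% to 140% of the Myl4 count over the 18 libraries, with a median of 104%. The Sln count was 13.9% ± 5.1 of the Myl4 count in P10 WT and 15.5% ± 1.4 in P10 KO (SD, n = 3). At 4w this proportion was 24.5% ± 4.46 in WT and 25.6% ± 3.75 in KO, and at 20w it was 28.8% ± 2.22 and 31.3% ± 1.27. All 6 P10 libraries, at 8.30% to 18.3%, lay below all 12 later ones, at 19.9% to 32.7%. The Mybphl count was 8.41% ± 0.783 and 7.46% ± 0.513 of the Myl4 count in P10 WT and KO, and 13.6% ± 0.3 and 13.6% ± 0.153 at 20w. In 4w KO it ran from 7.77% to 17.1%, wider than in any other group, and its lowest value, in replicate 2, lay within the P10 range of 6.87% to 9.31%. That library held 15 Mybphl reads, with 95% limits of 8.4 to 24.7 for counting error. The Bmp10 count ran from 0% to 31.1% of that of Myl4.

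Other genes known from atria were counted beside the 5. Between KO and WT limma called 2.26%, 5.65% and 7.49% of all genes at P10, 4w and 20w. Of a list of 20 further atrial genes, 18 were tested, and it called 0 of them at P10 and 0 at 4w. At 20w it called 1 higher in KO, the peptide-amidating enzyme Pam (log2 difference of 0.40, adjusted p of 0.0029), and 2 lower, the secreted glycoprotein Dkk3 (-0.54, 0.0067) and the potassium channel Kcna5 (-0.42, 0.0139). The median log2 difference of the list was 0.05 at 4w and -0.24 at 20w, against 0.00 and 0.01 over all genes tested. From 4w to 20w in WT limma called 25.1% of all genes, and 13.3% as higher. Of the 18 it called 5 higher (Clu, Stard10, Cacna2d2, Kcnj3 and Nr2f2) and Kcna5 lower. Among these, Cacna2d2 encodes a calcium channel subunit and rose by 0.77, and Nr2f2, a nuclear receptor of atrial identity, rose by 0.43 (limma adjusted p of 0.00287 and 0.0276). With a common total limma called 2 of the 18 higher and 2 lower, with a median log2 difference of 0.08 in place of 0.22. Leaving Rn45s and Lars2 out of that total gave 3 higher and 2 lower. Nppa, the atrial natriuretic peptide, was not called between KO and WT, at log2 differences of -1.43, 0.10 and 0.85 at the 3 ages (limma adjusted p of 0.22, 0.96 and 0.403). Summed without Nppa, the further atrial genes ran from 22300 to 26220 in 4w WT and from 25650 to 26190 in 4w KO, so these groups overlapped. At 20w this sum ran from 27910 to 30400 in WT and from 32500 to 34980 in KO. Those groups were apart with KO the higher, and on the deposited scale 20w WT lay above 4w WT. Pam had the highest median of the summed genes, 12800 over all libraries, where the sum had a median of 25860. The sum therefore follows Pam more than the list. The median log2 difference of -0.24 at 20w had the sign of Myl4, Myl7, Sln and Mybphl, and with a common total 4 of the 18 lay above 0.

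The families of the 5 genes were counted as well, each list including its own members here. The shares of all genes called between KO and WT were 2.26%, 5.65% and 7.49% at P10, 4w and 20w. Of 11 myosin light chain genes tested, limma called 0 between KO and WT at 4w and 0 at 20w, and 1 lower in KO at P10, the fast skeletal and embryonic light chain Myl1 (-1.46, adjusted p of 0.000349). Of 3 myosin binding protein genes, the skeletal form Mybpc2 was lower in KO at P10 and 4w (-0.67 and -0.63, limma adjusted p of 0.0233 and 0.0156), and cardiac Mybpc3 was higher at 20w (0.53, 0.00396). Of 11 genes of SERCA and its regulators, limma called 0 at P10, 1 lower at 4w and 3 higher and 3 lower at 20w. Those 3 lower included Hrc, the calcium-binding protein of the sarcoplasmic reticulum (-0.37, adjusted p of 0.039), and Pln was not called at any age. Of 25 genes of the BMP10 receptors and their targets, limma called 1 higher in KO at 4w, the type I receptor Acvr1 (0.43, adjusted p of 0.0192), and 1 higher at 20w, the T-box factor Tbx20 (0.44, 0.0225). In the BMP list the call of Bmp10 as higher from 4w to 20w in WT follows from the filter. With it, limma called 4 of the 25 higher and 4 lower, against 25.1% of all genes called. Those with the smallest p were the BMP-binding regulator Bmper (-0.66, limma adjusted p of 0.00424), the type II receptor Bmpr2 (0.44, 0.00699), Acvr1 (0.39, 0.0131) and the immediate BMP target Id3 (-0.42, 0.028). With a common total the split was 1 higher, which was Bmp10, and 4 lower.

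Markers of neighbouring tissues were compared with the library differences. Lung epithelium, which adjoins veins sheathed with atrial-like muscle in mice, was represented by 8 genes, none of which passed the filter. Their sum was 0.525 to 29.0 in all libraries, and Sftpd and Cldn18 were at 0 reads in all 18. Skeletal muscle, the other tissue that makes Sln, was represented by 15 genes, of which 4 were tested. The sum of the 15 was 677.0 to 1514 in 4w WT and 391.9 to 555.9 in 4w KO, opposite in order to Sln. The fast myosin Myh2 gave 692.0 in 1 library. Casq1 had the highest median of the 15 genes, 239 over all libraries, where the sum had a median of 449.4. The sum therefore follows Casq1 more than the list. At 20w the sum was 426.6 to 541.9 in WT and 296.2 to 342.7 in KO, the same order as the Sln means at that age. At P10 it was 437.8 to 603.6 in WT and 184.0 to 231.6 in KO. Of the 4 genes tested, limma called 0 higher in KO at each age. It called 2 lower at P10, 1 lower at 4w and 2 lower at 20w. The fast skeletal myosins Myh1 and Myh4 did not pass 13.1 and 4.06 in any library. Of 11 sinoatrial and conduction genes tested, limma called 1 higher in KO at P10 and 1 higher at 4w (the T-type calcium channel Cacna1g, 0.61, adjusted p of 0.0473). At 20w it called 1 lower (the contactin Cntn2, -0.88, limma adjusted p of 0.0101). Of 10 ventricular chamber genes, it called 1 higher and 1 lower at P10, 2 higher at 4w and 2 higher and 2 lower at 20w. The shares of all genes called between KO and WT were 2.26% at P10, 5.65% at 4w and 7.49% at 20w. The part of these tissues in the library differences was not tested.

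Likeness across libraries was measured as Pearson's r between deviations from the group means, a description with no test, since libraries share their depth and preparation. With the mean of Myl4, Myl7, Sln and Mybphl, the 18 further atrial genes had a median r of 0.179, with 2 of 18 above 0.5, Dkk3 at 0.721 and the connexin gene Gja5, known from atria and conduction tissue, at 0.576. The endothelial and endocardial list had a higher median, 0.235, with 1 of 10 above 0.5, and the great vessel smooth muscle list had a median of 0.153 with 2 of 9 above 0.5. Conduction genes had a median of -0.026, ventricular chamber genes -0.051, fibroblast genes -0.099 and cardiomyocyte genes -0.238, against -0.019 over all other genes tested, of which 1.62% were above 0.5. The great vessel list ran from the smooth muscle myosin Myh11 (-0.308) to the elastin gene Eln (0.675), the endothelial list from Kdr (-0.087) to Plvap (0.569) and the fibroblast list from Pi16 (-0.301) to Tcf21 (0.545). Among 10321 genes with a mean of at least 50, those most like the mean of the 5 genes, each scaled to unit SD, were Nol12 (r of 0.801), Mageh1 (0.76), Il10ra (0.758), Dkk3 (0.742) and Dpm2 (0.729). With Bmp10 left out of that mean, the r of these genes was 0.732, 0.729, 0.747, 0.721 and 0.716, and no gene tested passed 0.756. For single genes r was taken between the log2 values themselves, which also hold the differences between groups. By this measure the gene most like Sln was Pdk2, a kinase of the pyruvate dehydrogenase complex, at 0.883, and Pdk2 was also among the 3 most like Mybphl at 0.837. The highest for Myl4 was Mettl8 (0.746), for Myl7 Bcl7a (0.705), for Bmp10 Zbtb24 (0.722) and for Mybphl Lonrf1 (0.845).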

How the data were processed

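The authors deposited 1 table of a signal per gene and library: DESeq2 normalized counts, per the labels, in which the read count is scaled by the library's size factor. Per the submitters' processing notes, Bowtie2 2.0, the build mm9 and DESeq2 were used; which counter, strand setting and annotation were used is not given in the sources used here. Values were whole multiples of 1 read in 100.0% of cases (tolerance 0.001), which gave the reads. Of the entries, 27 had names turned into dates and were kept in the totals only.

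One limma 3.58.1 model (R 4.3.3) of 6 group means was fitted to log2(value + 1) of 13032 genes with a mean of at least 10, with a mean trend, two-sided tests and Benjamini-Hochberg adjustment over all genes; called means an adjusted p under 0.05. Fold changes are on that scale and understate those of low genes. Alternatives on the recovered reads used edgeR 4.0.16 and DESeq2 1.42.0; other alternatives changed the scaling, pseudocount, filter, libraries and weights. The fit was tested on simulated data. Intervals and limits for 0 reads (3 reads) cover counting error only. Exon lengths and overlapping genes came from a GRCm38 annotation, another build than that of the files.

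The 5 genes and the 16 other lists were chosen with earlier results of these data known. The genes named are the 5, their counterparts, Klf15 and Nppa, called members of the lists, the 10 genes most like the mean of the 5 (of which 5 are given) and the 3 most like each. Sftpd, Cldn18, Casq1, Myh1, Myh2, Myh4, Gja5, Eln, Myh11, Plvap, Kdr, Tcf21, Pi16 and more than 4 called genes of a list were named after their values were seen. The replicate numbers were checked as a pairing and not used, as they did not pair the libraries.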

Additional observations from a re-analysis of the deposited data

How the results depend on the processing

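Over 40 values and counts and their alternatives, 1077 of 1168 kept their direction and their side of the threshold, 46 lost and 33 gained a call, and 12 changed sign. The number of the 5 genes called between KO and WT at 4w (0) became 1 with DESeq2, a mean of at least 50, library quality weights or the replicate block, 2 with only the groups compared, and 0 to 1 when libraries were left out. At 20w (0) it was 1 with edgeR and with DESeq2, and 0 to 1 when libraries were left out. For the KO effect at 20w against 4w (0) it was 1 with DESeq2 and with weights, 2 with only the groups compared, and 0 to 1 when libraries were left out. There DESeq2 gave an adjusted p for 2 of the 4 genes other than Bmp10. For WT 4w against P10 (0) it was 2 with a common total, 1 with a common total without Rn45s and Lars2, with only the groups compared and with weights, and 0 to 1 when libraries were left out. For WT 20w against 4w (5) it was 3 with either common total or a mean of at least 50, 2 with no filter, 0 without the 4 libraries highest in Rn45s, and 1 to 5 when libraries were left out. For KO 4w against P10 (3) it was 1 with a common total, 2 without Rn45s and Lars2 in the total and with a mean of at least 50, and 2 to 4 when libraries were left out; for KO 20w against 4w (0) it was 0 to 1 when libraries were left out. Bmp10 alone gave the calls of edgeR and DESeq2 at 20w. Without Bmp10 the count for WT 20w against 4w (4) was 3 with edgeR, DESeq2, a pseudocount of 0.5 or a mean of at least 50, 2 with either common total or no filter, 0 without the Rn45s libraries, and 1 to 4 when libraries were left out. The mean of at least 50 removed Bmp10 and Mybphl from the test; otherwise the cause was not tested. The sign changes were all of uncalled values: at P10, Sln was at -0.062 with edgeR and -0.071 with DESeq2, and Myl4 at 0.081 with weights; Myl7 from P10 to 4w in KO was at -0.086 with a common total. When 1 library was left out, the log2 differences at P10 ran from -0.23 to 0.31 for Myl7, -0.48 to 0.34 for Sln and -0.28 to 1.52 for Bmp10, and, for KO from 4w to 20w, from -0.35 to 0.20 for Mybphl and -1.47 to 0.12 for Bmp10. Over all genes, the 736 calls between KO and WT at 4w (390 higher) were 617 with a common total (19 higher), 731 without Rn45s and Lars2 in the total (240 higher) and 212 (69 higher) without the 4 Rn45s libraries; at P10 the 295 calls ranged from 109 (common total) to 1384 (weights), at 20w the 976 from 408 (common total) up, and for the KO effect at 20w against 4w the 25 from 3 (replicate block) to 157 (DESeq2). The replicate numbers are names only: 7 of 45 same-numbered pairs of libraries correlated above 0.1 and 6 of 18 libraries correlated best with their own number. Depth limits Bmp10 most, with 200 reads in all.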
